A study of Mus musculus with 6 samples.

Results

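Nestin (Nes), Pax6, Sox1, β-III tubulin (Tubb3), Nrcam, Ncam1, Map2, Zic1 and doublecortin (Dcx) are 9 genes of the neural lineage and of neuronal adhesion. They were taken from 20706 genes measured in murine embryonic stem cells (ESCs) depleted of cohesin or condensin. The genes were chosen by name, with results of these libraries already known: Nrcam had been seen among the largest increases against the control after SMC1 and CAPH2 knockdown. Its values against the control, and its difference between CAPH2 and SMC2 knockdown, are therefore a description. For each gene the RefSeq transcript with the most counts over the 6 libraries is given.

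V6.5 is a C57BL/6-129 murine ESC line. The cells were grown on irradiated mouse embryonic fibroblasts and then off them on gelatin, infected with a lentiviral shRNA, and selected with puromycin at 0.5 µg/ml for 48 hours and 1 µg/ml for another 48 hours, as the sample labels give it. RNA from 652000 cells per library received synthetic ERCC RNAs and was sequenced in 6 libraries: 1 for a control hairpin that targets GFP, 1 for SMC1 (a core subunit of cohesin), 2 for CAPH2 (a subunit of the condensin II complex) and 2 for SMC2 (a core subunit shared by condensin I and II). Every library, the control included, therefore comes from infected and selected cells. The CAPH2 libraries #1 and #2, which the labels also number 3 and 4, are different hairpins, and so are the SMC2 libraries #1 and #2. Each knockdown is a mixed population of selected cells, and the single GFP library is the reference of every change, so the changes given for the 5 knockdown libraries share it and are not independent of each other.

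When ESCs take up a neural fate, the transcription factors Sox1 and Pax6 and the intermediate filament protein nestin mark neural progenitors, and β-III tubulin, Map2 and doublecortin, which form or bind microtubules, appear as the cells become neurons. Nrcam and Ncam1 are cell surface proteins of the immunoglobulin superfamily that serve in axon growth and in contacts between neural cells. ESCs in culture hold some cells that have started to differentiate, so low levels of these transcripts are usual in an ESC population.

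In the SMC1 library the level of 7 of the 9 transcripts was above that in each of the other 5 libraries, and the level of the remaining 2, Ncam1 and Tubb3, was below that in each of them. Zic1 and Nrcam were more than 7-fold above the GFP control, Nes, Pax6 and Map2 were 2.37-fold to 2.85-fold above it, and Sox1 was 1.53-fold above it, whereas Ncam1 was at 46.1% of the GFP control and Tubb3 at 83.8%. With CAPH2 or SMC2 knockdown the changes were smaller, with Nrcam the largest among the transcripts with enough counts (10 or more in at least 2 libraries). Levels are given as RPKM, the exonic reads scaled to the length of the transcript and to the reads of the library. The ratios to GFP carry 95% exact binomial (Clopper-Pearson) confidence intervals computed from the counts, which cover counting error only. No test against GFP was run: the GFP and SMC1 groups hold 1 library each, and a fit would have to take their spread from the CAPH2 and SMC2 hairpins.

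**Figure D1:**
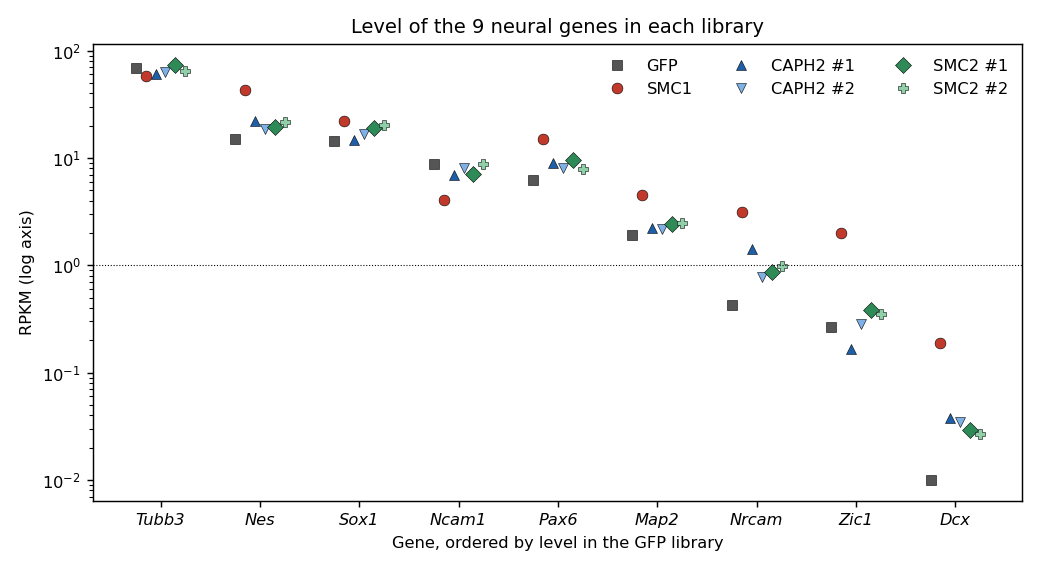
RPKM of the 9 transcripts (log axis) in the GFP, SMC1, CAPH2 #1, CAPH2 #2, SMC2 #1 and SMC2 #2 libraries, 1 point per library, with a dotted line at 1 RPKM. The SMC1 point lies above the other 5 libraries for 7 transcripts and below them for Ncam1 and Tubb3.

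The 250 bases before the start of the transcript are printed here for Nrcam and Zic1, which were well above GFP in the SMC1 library, for Ncam1, which was below it, and for Dcx, which was scarcely detected. The bases were read from the mm9 genome on the strand of the gene, at chr12:45429622-45429871 (plus strand) for Nrcam, chr9:91260638-91260887 (minus) for Zic1, chr9:49607175-49607424 (minus) for Ncam1 and chrX:140367668-140367917 (minus) for Dcx. Capitals mark matches, on either strand, to the GC box GGGCGG, the CCAAT box CCAAT and the TATA box TATAAA. The E-box CAGCTG was also searched, and no searched motif overlapped another in these windows.
Nrcam: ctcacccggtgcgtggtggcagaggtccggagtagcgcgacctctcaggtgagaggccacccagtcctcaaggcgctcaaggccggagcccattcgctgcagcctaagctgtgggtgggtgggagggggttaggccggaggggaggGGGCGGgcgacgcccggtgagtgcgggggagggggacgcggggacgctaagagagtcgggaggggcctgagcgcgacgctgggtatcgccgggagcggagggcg
Zic1: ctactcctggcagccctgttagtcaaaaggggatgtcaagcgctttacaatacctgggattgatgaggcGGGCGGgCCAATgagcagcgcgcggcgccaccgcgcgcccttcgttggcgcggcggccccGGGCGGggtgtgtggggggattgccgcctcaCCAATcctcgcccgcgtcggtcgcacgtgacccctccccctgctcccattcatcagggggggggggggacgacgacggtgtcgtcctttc
Ncam1: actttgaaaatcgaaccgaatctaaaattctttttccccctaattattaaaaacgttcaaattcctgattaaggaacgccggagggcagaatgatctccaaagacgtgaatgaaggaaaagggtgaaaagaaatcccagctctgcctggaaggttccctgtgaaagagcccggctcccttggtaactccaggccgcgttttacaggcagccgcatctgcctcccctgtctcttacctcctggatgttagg
Dcx: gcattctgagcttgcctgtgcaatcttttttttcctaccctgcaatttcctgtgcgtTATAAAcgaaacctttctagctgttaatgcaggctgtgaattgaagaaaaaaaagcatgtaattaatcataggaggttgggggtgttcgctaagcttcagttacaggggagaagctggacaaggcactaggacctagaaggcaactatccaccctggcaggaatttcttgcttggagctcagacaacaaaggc

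The windows of Nrcam and Zic1, which had the largest ratios in the SMC1 library among the transcripts with enough counts, were rich in G and C (72.4% and 68.4%, against a median of 56.4% over 23016 such windows of RefSeq transcripts). Nrcam held 1 GC box, and Zic1 held 2 GC boxes and 2 CCAAT boxes. The window of Ncam1, lower in the SMC1 library, was 47.6% G and C with no match to any of the 4 motifs, while that of Tubb3, also lower there, was 68.4% G and C with 2 GC boxes and 1 CCAAT box. The window of Dcx, the least abundant transcript, was 44.8% G and C and held 1 TATA box at position -193 from the start. Its ratio of observed to expected CpG was 0.241, against a median of 0.565 over all windows. Over the 9 genes, 6 windows held a GC box (44.7% of all windows), 3 a CCAAT box (34.6%), 1 a TATA box (11.4%) and 0 the E-box (12.4%). These matches are a description of the letters in the windows only.

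Nrcam (NM_176930, chromosome 12 from 45429872 to 45702833, plus strand, mm9), a neuronal adhesion molecule that binds ankyrin and other adhesion molecules at the axon, was at 0.43 RPKM in the GFP control, 3.17 in the SMC1 library, 1.43 and 0.779 with CAPH2 #1 and #2, and 0.873 and 0.977 with SMC2 #1 and #2. The GFP library was the lowest and the SMC1 library the highest, and the CAPH2 hairpins lay on either side of the SMC2 hairpins. The counts behind these levels were 70, 462, 252, 111, 149 and 151 in the same order. The level was 7.38-fold that of GFP with SMC1 (interval 5.74 to 9.64), 3.32-fold with CAPH2 #1 (2.54 to 4.39), 1.81-fold with CAPH2 #2 (1.33 to 2.48), 2.03-fold with SMC2 #1 (1.52 to 2.74) and 2.27-fold with SMC2 #2 (1.70 to 3.06). All 5 intervals lie above 1. The hairpins of CAPH2 differed from each other beyond counting error, by 1.83-fold (1.46 to 2.31), while those of SMC2 did not (0.894-fold, 0.708 to 1.13). The log2 changes averaged 1.29 ± 0.618 over the CAPH2 hairpins and 1.10 ± 0.115 over the SMC2 hairpins (SD, n = 2). Nrcam has another RefSeq row, NM_001146031, whose exons are largely shared, and its log2 change was 2.90 with SMC1.

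Ncam1 (NM_001113204, chromosome 9 from 49310251 to 49607174, minus strand), which encodes NCAM, an adhesion molecule that binds itself on neighbouring cells, went the other way in the SMC1 library. Its RPKM was 8.80 in the GFP control, 4.06 with SMC1, 6.99 and 8.14 with CAPH2 #1 and #2, and 7.17 and 8.86 with SMC2 #1 and #2. The SMC1 library was the lowest, and the other 5 libraries spanned a narrow range with the GFP control inside it. The SMC1 level was 46.1% of GFP (interval 41.7 to 51.0), while CAPH2 #1 and SMC2 #1 left 79.4% (73.3 to 86.1) and 81.4% (75.2 to 88.2). CAPH2 #2 and SMC2 #2 did not differ from GFP beyond counting error, at 92.5% (85.2 to 100.3) and 100.6% (93.1 to 108.8). The 3 RefSeq rows of Ncam1 were each lower in the SMC1 library, with log2 changes of -1.12 for NM_001113204, -1.13 for NM_001081445 and -0.99 for NM_010875, and the rows share exons. The counting did not use strand as far as the sources give it, the library kit does not mark strand, and 254 of the 10121 exon bases of Ncam1 overlap the gene Gm11149 on the opposite strand.

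Of the transcription factors, Zic1 (NM_009573, chromosome 9 from 91255183 to 91260637, minus strand), a zinc finger factor of the dorsal neural tube, stood out in a single library. Its RPKM was 0.264 in the GFP control, 2.02 with SMC1, 0.166 and 0.285 with CAPH2 #1 and #2, and 0.384 and 0.351 with SMC2 #1 and #2. The SMC1 library lay far above the other 5, which overlapped. The counts were 19 in the GFP control and 130 in the SMC1 library, and 13 to 29 in the condensin libraries. The ratio to GFP was 7.64 with SMC1 (interval 4.71 to 13.1), and none of the 4 condensin libraries differed from GFP beyond counting error. The highest upper limit among the 4 was that of SMC2 #1, at 1.45-fold with an interval of 0.790 to 2.75. A ratio to GFP of up to 2.75 in SMC2 #1 was thus not excluded by the counts. In the annotation, 60 of the 3395 exon bases of Zic1 overlap Zic4 on the opposite strand.

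Pax6 (NM_013627, chromosome 2 from 105516602 to 105537226, plus strand), a paired box factor of the forebrain and eye, was at 6.20 RPKM in the GFP control, 15.1 with SMC1, 8.89 and 8.15 with CAPH2 #1 and #2, and 9.68 and 7.88 with SMC2 #1 and #2. The GFP library was the lowest of the 6, the SMC1 library the highest, and the hairpins of CAPH2 lay within the range of the SMC2 hairpins. The level was 2.44-fold that of GFP with SMC1 (interval 2.15 to 2.79) and 1.27-fold to 1.56-fold in the 4 condensin libraries, each with an interval above 1. Sox1 (NM_009233, chromosome 8 from 12395519 to 12399555, plus strand), an early marker of neuroectoderm, was at 14.5 RPKM in the GFP control, 22.1 with SMC1, 14.8 and 16.8 with CAPH2 #1 and #2, and 18.9 and 20.1 with SMC2 #1 and #2. The order ran from GFP over CAPH2 and SMC2 to SMC1 without overlap between the pairs of hairpins. The ratio to GFP was 1.53 with SMC1 (1.42 to 1.65) and 1.30 and 1.39 with SMC2 #1 and #2. It was 1.16 with CAPH2 #2 (1.07 to 1.25), also beyond counting error. With CAPH2 #1 the Sox1 level did not differ from GFP beyond counting error (a log2 ratio of 0.04, interval -0.07 to 0.15).

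Nes (NM_016701, chromosome 3 from 87775015 to 87784373, plus strand), the intermediate filament protein of neural progenitors, was at 15.0 RPKM in the GFP control, 42.9 with SMC1, 22.2 and 18.8 with CAPH2 #1 and #2, and 19.3 and 21.5 with SMC2 #1 and #2. The GFP library was again the lowest, and the SMC1 library was 1.94-fold to 2.28-fold above the 4 condensin libraries. The ratio to GFP was 2.85 with SMC1 (interval 2.71 to 3.01), 1.47 (1.39 to 1.56) and 1.25 (1.18 to 1.33) with CAPH2 #1 and #2, and 1.29 (1.21 to 1.36) and 1.43 (1.35 to 1.52) with SMC2 #1 and #2.

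The 3 microtubule genes differed from each other. Map2 (NM_001039934, chromosome 1 from 66221903 to 66489157, plus strand), which encodes a microtubule-associated protein of dendrites, was at 1.91 RPKM in the GFP control, 4.52 with SMC1, 2.23 and 2.17 with CAPH2 #1 and #2, and 2.44 and 2.47 with SMC2 #1 and #2. The SMC1 library was the highest, and the hairpins of each condensin target lay close together. The ratio to GFP was 2.37 with SMC1 (interval 2.02 to 2.78) and 1.28 and 1.29 with SMC2 #1 and #2, both beyond counting error, and neither CAPH2 library (1.17 and 1.13) differed from GFP beyond counting error. The exons of Map2 overlap the opposite-strand gene Gm10558 over 124 of 16391 bases.

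Tubb3 (NM_023279, chromosome 8 from 125935464 to 125945910, plus strand), the tubulin used as a marker of young neurons, was the most abundant of the 9 transcripts in every library. Its RPKM was 69.7 in the GFP control, 58.4 with SMC1, 60.2 and 63.2 with CAPH2 #1 and #2, and 73.9 and 64.5 with SMC2 #1 and #2. The SMC1 library was the lowest, but CAPH2 #1 lay close above it. The SMC1 level was 83.8% of GFP (interval 79.0 to 88.9), the CAPH2 levels 86.4% (81.7 to 91.4) and 90.8% (85.6 to 96.2), and the SMC2 hairpins lay on opposite sides of GFP at 106.1% (100.6 to 112.0) and 92.5% (87.4 to 97.9). Of the 9 genes, 8 had an SMC1 level beyond all 4 condensin libraries by counting error, and Tubb3 was the exception through CAPH2 #1 (0.970-fold, interval 0.913 to 1.03). The share of all transcripts for which this holds was not computed. The SMC1 library was the highest for 38% and the lowest for 34.1% of 18463 transcripts with enough counts, so an outlying SMC1 level is not particular to these genes. The direction of Tubb3 depends on the scaling of the libraries: relative to the ERCC RNAs its log2 change with SMC1 was 0.61, against -0.25 from RPKM.

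Dcx (NM_001110222, chromosome X from 140290385 to 140367667, minus strand), a microtubule-binding protein of migrating neurons, was nearly absent. It had 2 counts in the GFP control (an RPKM of 0.010), 33 with SMC1 (0.189), 8 and 6 with CAPH2 #1 and #2 (0.038 and 0.035), and 6 and 5 with SMC2 #1 and #2 (0.029 and 0.027). The ratio of SMC1 to GFP from the counts was 18.5, with a counting interval of 4.72 to 159. The ratios of the condensin libraries, 2.64 to 3.69, all had intervals that include 1. Dcx was the 1 transcript of the 9 that did not have enough counts by the filter above.

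**Figure D2:**
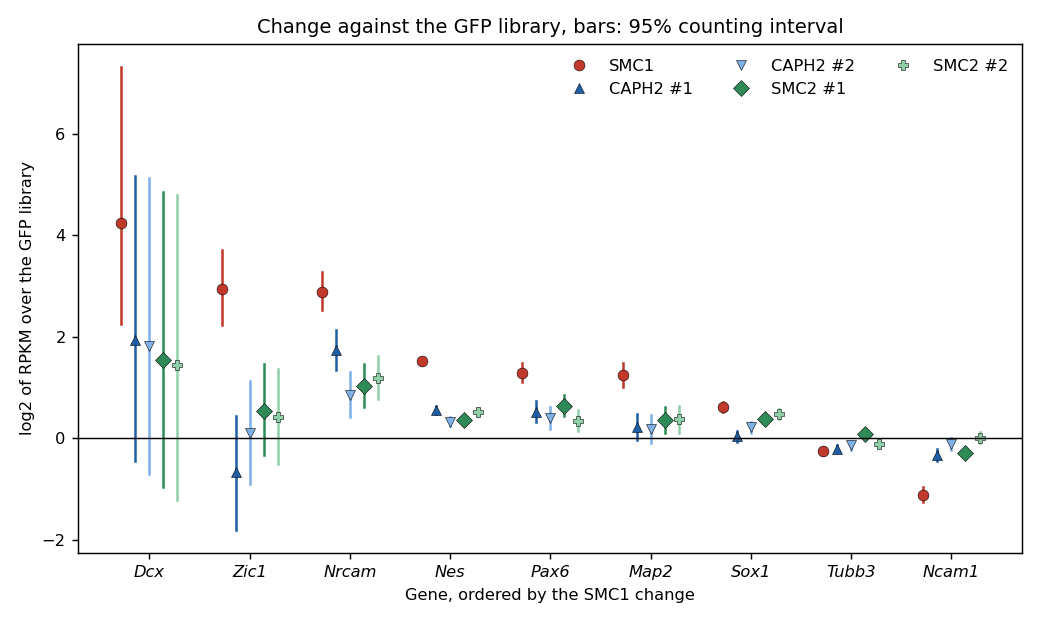
Log2 ratio of RPKM to the GFP control for each transcript and knockdown library, with 95% exact intervals that cover counting error only. With SMC1 knockdown 7 transcripts lie above 0 and 2 below, and of the condensin libraries all 4 have intervals above 0 only for Nrcam, Nes and Pax6.

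A log2 change of at least 1 with SMC1 knockdown was found for 6 transcripts above GFP (Dcx, Zic1, Nrcam, Nes, Pax6 and Map2) and for 1 below it (Ncam1). How many transcripts pass this size depends on their level. Of the 6 at 1 RPKM or more in the GFP control, 3 were higher by this size and 1 was lower, where 6.49% and 8.17% of 15538 such RefSeq transcripts were. Nrcam and Zic1, which were under 1 RPKM there but had enough counts, were both higher, where 44% of 2966 such transcripts were. For the averages over hairpins, 2 transcripts were higher by at least 1 on the log2 scale with CAPH2 (Nrcam and Dcx) and the same 2 with SMC2, and 0 were lower. Neither reached 1 RPKM in the GFP control, and among transcripts under that level with enough counts 12.7% (CAPH2) and 9.64% (SMC2) were higher by this size. Dcx did not have enough counts, so these shares can be set beside Nrcam only. Nrcam was chosen with its increases already known, so the shares printed beside it and its rank below are a description. Of the 8 transcripts with enough counts, 6 had their highest level in the SMC1 library, where 38% of 18463 transcripts had (34.3% of those at 1 RPKM or more in the GFP control and 56.8% of those under it), and the other 2 had their lowest level there, where 34.1% had. The median log2 change of the 9 transcripts was 1.29 with SMC1, 0.20 with the CAPH2 average and 0.44 with the SMC2 average. RefSeq transcripts under 1 RPKM in the GFP control with enough counts, which include Nrcam and Zic1, had medians of 0.80, 0.23 and 0.19 in the same order. Transcripts at 1 RPKM or more there had medians of -0.022, -0.012 and -0.027. The medians over 14420 genes with 1 row each and enough counts, which do not include Dcx, were 0.018, 0.00014 and -0.014. Among these genes ranked by their change with SMC1 from the highest down, Zic1 was at 103, Nrcam at 111, Nes at 943, Pax6 at 1245, Map2 at 1315, Sox1 at 3038, Tubb3 at 9749 and Ncam1 at 13303.

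Of the 9 transcripts, 6 were lowest in the GFP control, and the share of all transcripts lowest there was not counted. For these 6, a low value in that single library and a change in the knockdowns cannot be told apart. The mean of the 4 condensin libraries was therefore taken as another reference, chosen after seeing the data. Against it 4 transcripts were higher with SMC1 by at least 1 on the log2 scale, Zic1 (2.77), Dcx (2.55), Nrcam (1.65) and Nes (1.07), and 0 were lower by this size. Of 18463 transcripts with enough counts, 8.79% were higher and 5.95% lower by this size, and Dcx is not among these transcripts. The log2 values of the others were 0.96 for Map2, 0.81 for Pax6, 0.33 for Sox1, -0.17 for Tubb3 and -0.94 for Ncam1. All 9 kept the sign that they had against GFP.

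The RPKM values rested on 18823245 to 23324538 reads per library. The target transcripts were lower in their libraries, with 39.9% of the GFP level of Smc1a left with SMC1, 21.0% and 34.8% of Ncaph2 with CAPH2 #1 and #2, and 70.7% and 71.9% of Smc2 with SMC2 #1 and #2. They also differed from GFP in the other knockdowns. Ncaph2 was at 67.3% with SMC1 and 80.2% with the SMC2 average, and Smc2 at 157% with SMC1 and 156% with the CAPH2 average. Smc1a was at 129% and 121% with the CAPH2 and SMC2 averages. ERCC RNAs took 1.27% of reads in the SMC1 library and 2.32% in the GFP control, so scaling to them adds 0.86 to every log2 change with SMC1, 0.63 and -0.05 with CAPH2 #1 and #2, and 0.64 and 0.57 with SMC2 #1 and #2. On that scale Ncam1 stayed below GFP with SMC1 (-0.25) and was above it with the CAPH2 and SMC2 averages (0.09 and 0.46), Tubb3 was above it in all 3 comparisons, and Zic1 with the CAPH2 average moved from -0.23 to 0.01. In bulk RNA, fewer cells of a type and less RNA per cell cannot be told apart.

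**Figure D3:**
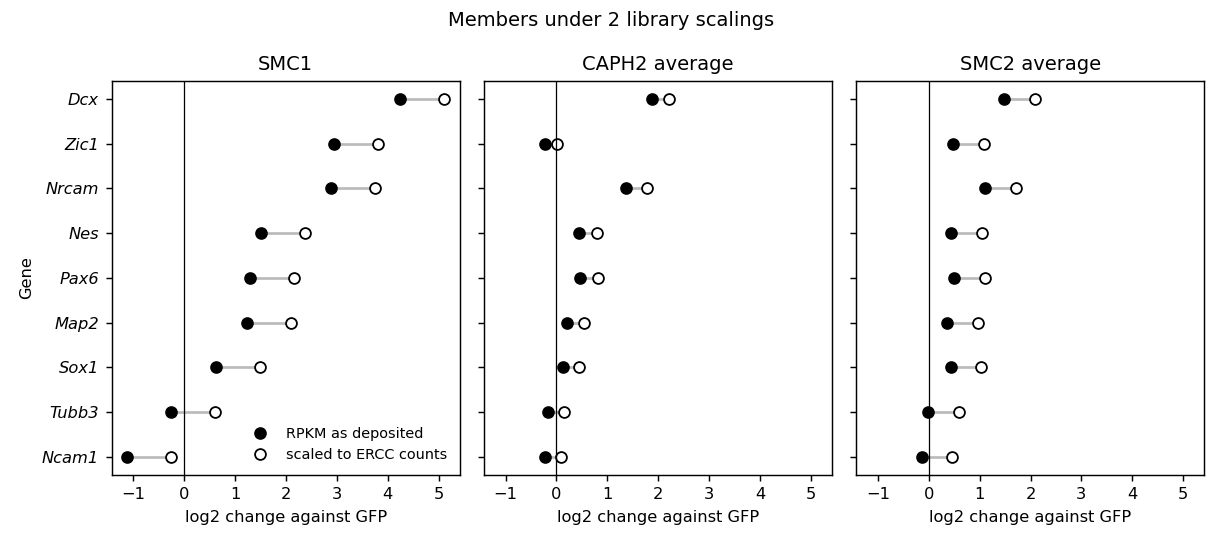
Log2 change of each transcript against GFP from the deposited RPKM (filled points) and scaled to ERCC counts (open points), for SMC1 and for the averages of the CAPH2 and SMC2 hairpins. ERCC scaling moves all transcripts up, Tubb3 changes sign with SMC1 (-0.25 to 0.61), and Ncam1 stays below 0 with SMC1 (-1.12 to -0.25).

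Markers of other cells moved in the SMC1 library too. Of 8 ESC markers, 6 were lower by at least 1 on the log2 scale and 0 were higher, with a median of -1.86. Over 14420 genes with enough counts, 9% were lower and 12.6% higher by this size. Of 10 fibroblast markers with enough counts (12 listed), 5 were higher and 0 lower by this size, with a median of 1.04. The summed RPKM of the fibroblast list was 204 in the GFP control, 717 with SMC1, 353 and 227 with CAPH2 #1 and #2, and 259 and 216 with SMC2 #1 and #2. Most of it was Tagln and Acta2, which encode contractile proteins of smooth muscle and activated fibroblasts, and the other 2 markers named by size of change were Col1a2, a chain of type I collagen (12.3 RPKM with GFP and 33.2 with SMC1), and S100a4 (4.57 and 17.6). Named after their values were seen, Col1a1 was at 20.8 and 39.4, and the matrix proteoglycans Dcn and Lum were at most at 0.56 and 0.125 RPKM in any library, with their highest level in the SMC1 library. CAPH2 #1 was the highest condensin library for both this sum and Nrcam. The part of other cell types in the levels of the 9 transcripts was not tested. Among genes spanning over 200 kb, which include Nrcam, Ncam1 and Map2, the median log2 change with SMC1 was 0.74 over 637 genes. Of these 3, Nrcam and Map2 were higher and Ncam1 was lower. For transcripts under 1 RPKM in the GFP control with enough counts the median was 0.80. Long genes were not compared with others of the same level, and the part of gene length was not tested.

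Genes of the same processes were counted from lists of known genes. These lists include the members, so their counts are not independent of the values above. Sox1, Pax6, Zic1 and Nes are in the progenitor list, Tubb3, Map2 and Dcx in the cytoskeleton list, and Nrcam and Ncam1 in the adhesion list. A log2 change of at least 1 with SMC1 was found above GFP for 12.6% and below GFP for 9% of the 14420 genes, and the shares above and below were 2.45% and 0.936% for the CAPH2 average and 1.72% and 0.763% for the SMC2 average. These shares cover genes of all levels. For transcripts under 1 RPKM in the GFP control with enough counts, the share above GFP with SMC1 was 44%. Of 21 neural progenitor regulators with enough counts, 10 were higher and 2 lower by this size, with a median of 0.93. The members Pax6, Zic1 and Nes are among the 10. Of the 10, Zic1, Pax3, Six3, Lhx2 and Fabp7 were under 1 RPKM in the GFP control. The 2 lower genes were Olig2 and Sox2, the most abundant of the list (365 RPKM in GFP and 143 with SMC1). Pax3, Six3, Lhx2, Fabp7 and Sox2 were named after their values were seen. The summed RPKM of the 22 listed genes was 641 in the GFP control and 556 with SMC1. Besides Nes, the members with the largest changes and a mean of at least 50 counts were Pou3f1, a POU factor of early neuroectoderm (22.5 in GFP and 65.7 RPKM with SMC1), Sox3, a SoxB1 factor (6.84 and 27.6), and Olig2, a factor of motor neuron and oligodendrocyte progenitors (32.2 and 11.1). Pou3f1 and Sox3 were thus higher and Olig2 lower in the SMC1 library. With CAPH2 and SMC2 the medians of the list were 0.16 and 0.15, and 1 and 0 genes were higher by this size.

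The neuronal cytoskeleton list was mixed in direction. Of 15 genes with enough counts, 6 were higher and 2 lower by at least 1 with SMC1, with a median of 0.65. The member Map2 is among the 6. Nefm, a neurofilament subunit, was at 1.02 RPKM in the GFP control and 8.08 with SMC1, and its log2 changes were 1.25 with the CAPH2 average and 0.92 with the SMC2 average. Dclk1, a kinase related to doublecortin, was at 0.247 and 1.21. Mapt, which encodes the microtubule-associated protein tau of axons, was lower, at 6.90 in the GFP control and 1.17 with SMC1. Of 15 neural cell adhesion genes with enough counts (20 listed), 5 were higher and 1, Ncam1, was lower by this size with SMC1, and 3 were higher with each of the CAPH2 and SMC2 averages. Nrcam is in each of these counts of higher genes. Cdh2, which encodes N-cadherin, had an RPKM of 4.36 in GFP and 20.6 with SMC1, and 6.82 to 7.50 in the condensin libraries. Alcam, an adhesion molecule of the same superfamily as Nrcam, was at 0.309 in GFP and 1.93 with SMC1, and at 0.536 to 0.744 in the condensin libraries. Both thus had the order of Nrcam, with GFP lowest, the condensin libraries between and SMC1 highest.

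Lists for later steps of neurogenesis were counted in the same way. Of 7 proneural factors with enough counts (11 listed), 1 was higher and 1 lower by at least 1 with SMC1, and the median was 0.29. The medians with the CAPH2 and SMC2 averages were -0.04 and 0.35. The 4 without enough counts were named after their values were seen. Neurog2 had 47 counts with SMC1 and 1 to 6 in the other libraries, and Neurod4 had 25 and 0 to 2. Myt1l had 11 and 0 to 6, and Myt1 had 3 and 0 to 4. Of the factors with enough counts, Neurog3 (-1.21) and Neurog1 (-0.99) had the lowest log2 changes with SMC1, and both were also named after their values were seen. Insm1, a zinc finger factor of newborn neurons, was at 6.35 in GFP and 17.8 with SMC1, while Neurod1, a factor of neuronal differentiation, was at 5.91 in GFP, 6.63 with SMC1 and 12.9 with CAPH2 #1, its highest library. Ebf1 was at 1.16 and 1.41. Of 11 RNA-binding proteins of neuronal transcripts, 1 was higher and 0 lower, with a median of 0.086. This gene was Nova1, a splicing regulator of neurons, at 1.63 in GFP and 3.67 with SMC1, and the log2 changes of Ptbp2, Elavl4 and Elavl3 were 0.69, 0.36 and -0.46. Of 10 genes of the REST repressor, which silences neuronal genes in other cells, and its corepressors, 0 passed this size in either direction, with a median of -0.20. Rest itself, named as the repressor, was at 75.4 in GFP and 60.1 with SMC1. The log2 changes with SMC1 were -0.71 for Rcor2, -0.58 for Ehmt2, -0.38 for Kdm1a and 0.46 for Ctdsp1.

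**Figure D4:**
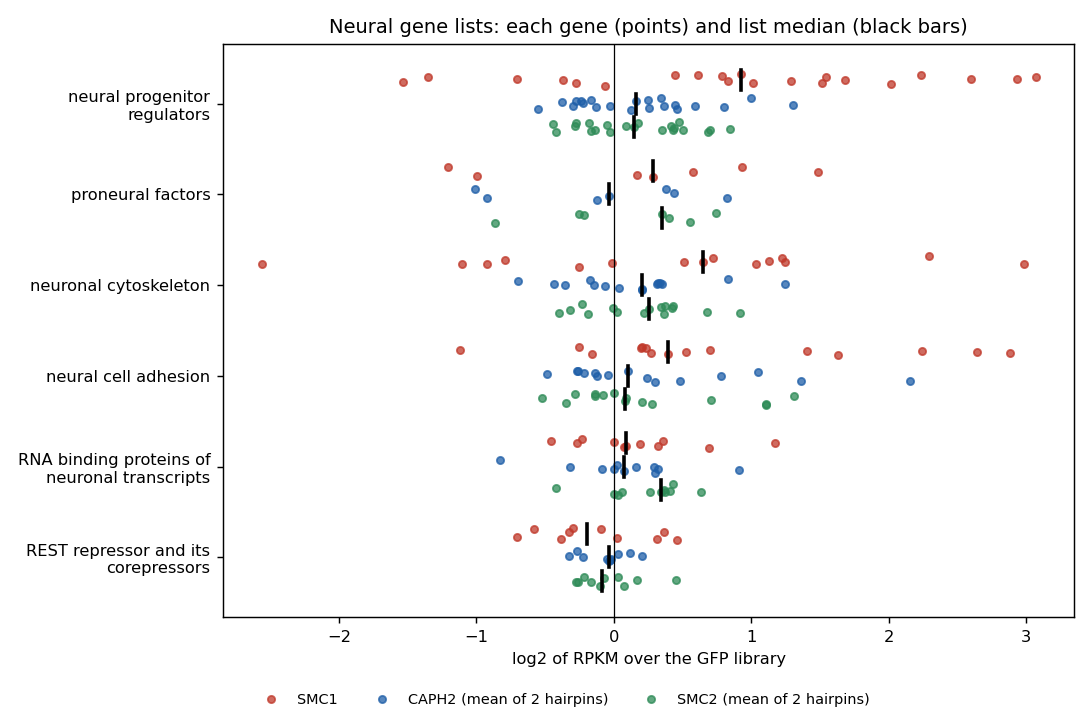
Log2 change against GFP for the genes of 6 neural lists, 1 point per gene with enough counts, for SMC1, the CAPH2 average and the SMC2 average, with black bars at the list medians. The points include the members other than Dcx. The SMC1 medians run from 0.93 for progenitor regulators to -0.20 for REST and its corepressors, and the SMC2 median lies above the SMC1 median for proneural factors (0.35 against 0.29) and for RNA-binding proteins (0.34 against 0.086).

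Lists for neighbouring lineages are given for comparison. Of 11 neural crest markers, 4 were higher and 1 lower by at least 1 with SMC1, with a median of 0.89, and the named ones were Msx1 (2.21), Twist1 (1.80), Ets1 (1.64) and Msx2 (1.33). Of 10 glial markers, 2 were higher and 2 lower, with a median of 0.054, and the largest changes at a mean of at least 50 counts were those of Aldh1l1 (-1.66), Olig2 (-1.53), Olig1 (-0.78) and Cnp (-0.41). At lower counts Slc1a2 (3.39) and Gfap (1.16) were the members above GFP by this size, and both were named after their values were seen. Counts above and below by this size were 4 and 1 for primitive endoderm, 4 and 1 for trophectoderm, and 2 and 2 for mesoderm, of 10, 7 and 7 genes. Differences between lists were not tested.

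CAPH2 against SMC2 was the 1 comparison with 2 libraries in each group, and it was tested with edgeR over all 18245 transcripts that passed the count filter. Of the 8 genes in the test, 0 passed an adjusted p of 0.05, where 0.00548% of all transcripts did, which is 1 transcript, Smc2. At an unadjusted p under 0.05 there was 1 of the 8, Sox1, and 565 of 18245 transcripts. Sox1 was higher with SMC2 by 0.31 ± 0.0848 (SE) on the log2 scale (mean RPKM of 19.5 against 15.8, edgeR adjusted p = 0.9995). Nrcam was lower with SMC2 by a log2 difference of -0.26 ± 0.245 (mean RPKM of 0.925 against 1.10, edgeR adjusted p = 0.9995). For Zic1 and Tubb3 the log2 differences were 0.74 ± 0.359 and 0.18 ± 0.0826, and for Ncam1, Map2, Pax6 and Nes they were 0.09, 0.17, 0.05 and 0.0039. A p above the threshold with 2 libraries per group does not show that the levels were alike. The hairpins are the replicates here, so these p-values measure the spread between different hairpins. With CAPH2 #2 left out, the log2 differences of Sox1 and Nrcam were 0.40 and -0.62. With CAPH2 #1 left out, the log2 difference of Nrcam turned to 0.25 while that of Sox1 was 0.22. In both fits the lone CAPH2 library was assumed to vary like the SMC2 libraries, so only the log2 differences are given. Nrcam was chosen with its increase after CAPH2 knockdown already known, so its difference from SMC2 is not an independent test.

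Genes with a pattern most like that of Nrcam were sought among 12126 genes with a mean of at least 50 counts, by the Euclidean distance of log2(RPKM + 0.1), centred on each gene's mean, over the 6 libraries. Of the 5 nearest, 4 are given, with their distances: Frrs1l (0.232), Hs6st2 (0.245), a heparan sulfate 6-O-sulfotransferase, Cavin2 (0.291), a caveolar protein, and C1qtnf3 (0.317), where the median distance over all genes compared was 1.99. The counts of Hs6st2 were 119 in the GFP control, 743 with SMC1, 349 and 187 with CAPH2 #1 and #2, and 263 and 229 with SMC2 #1 and #2. Of the other transcripts, Nes was the 266th nearest, Pax6 the 594th, Map2 the 692nd and Sox1 the 2665th, and Tubb3 and Ncam1 were at 8519 and 11458. These 4 genes were not among the listed adhesion genes. Several of the compared genes have few counts in the GFP control, and the distances carry its counting error.

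**Figure D5:**
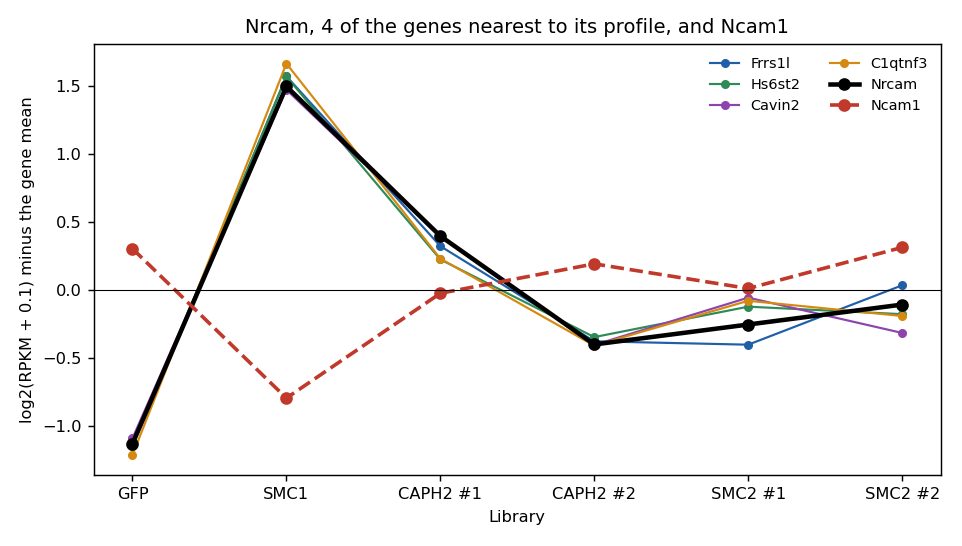
Log2(RPKM + 0.1) relative to each gene's mean over the 6 libraries for Nrcam, 4 of its nearest genes and, dashed, Ncam1, with lines that only join the points of a gene. Nrcam and the 4 genes are each lowest in the GFP control, highest in the SMC1 library and next highest with CAPH2 #1, and Ncam1 is lowest in the SMC1 library. The 4 genes were chosen for their closeness to Nrcam over these same libraries, so a shared order comes with the choice.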

How the data were processed

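Total RNA from V6.5 ESCs was sequenced in 6 libraries (GFP, SMC1, and 2 hairpins each of CAPH2 and SMC2). The authors ran Bowtie against mm9 (-e 70 -k 1 -m 2 -n 2), and a transcript with near-identical copies can lose reads. They deposited raw counts of exonic reads per RefSeq transcript from RPKM_count 2.3.5, so isoforms that share an exon share its reads. The deposited RPKM values relate these counts to transcript length and library reads and do not use the ERCC RNAs. Each file holds 26073 RefSeq rows and 92 ERCC rows. Gene symbols were matched by RefSeq accession for 25353 rows.

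The members and the 13 further gene lists were chosen with earlier results of these data known. All 9 members are named, with up to 4 genes per further list (the largest changes with SMC1 among genes with a mean of at least 50 counts), the knockdown targets, and the 5 genes nearest to Nrcam, of which 1 is not reported here. Rest and genes said to be named after their values were seen are outside this rule.

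Log2 changes against GFP were calculated from RPKM with no pseudocount. The 2 hairpins of CAPH2, and of SMC2, were averaged as RPKM first, except where a mean ± SD of log2 changes is given. A transcript had enough counts with at least 10 in at least 2 libraries. CAPH2 against SMC2 was tested with edgeR 4.0.16 in R 4.3.3 (quasi-likelihood test with TMM factors, p-values adjusted by Benjamini-Hochberg). On counts simulated for 18245 transcripts of this comparison, 200 were changed by a log2 size of 1.5. The step called 211, among them all 200 that were changed and 11 that were not. Smaller changes were not simulated, so the power for the members, with log2 differences of at most 0.74 (Zic1), was not tested. In the real libraries Ncaph2, the CAPH2 target, had a log2 difference of 1.54 and was not called (edgeR adjusted p = 0.0511). The alternatives were TMM, DESeq2 and ERCC scaling, a pseudocount of 1, other filters and rows, DESeq2 1.42.0, a replicate block, and leaving out each hairpin. Promoter windows were read from mm9, and overlaps between genes from GENCODE annotation of the same build, in which Sox1 was not matched. Other steps used Python 3.11.15 and scipy 1.17.1.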

Additional observations from a re-analysis of the deposited data

How the results depend on the processing

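With SMC1, 6 members were higher than GFP by at least 1 on the log2 scale and 3 were with a filter of 1 RPKM on the GFP control. With a pseudocount of 1 RPKM 4 were: the changes of Map2 (0.92) and Dcx (0.24) no longer reached this size, and those of Nrcam and Zic1 were 1.55 and 1.26. The 1 member lower by this size, Ncam1, no longer passed it (0 members) under ERCC scaling, with a pseudocount of 1 RPKM, or, chosen after seeing the data, against the mean of the 4 condensin libraries. The 2 members higher with the CAPH2 average became 0 with the pseudocount, 0 with the RPKM filter, and 1 to 2 when a hairpin was left out (1 without CAPH2 #1). The 2 higher with the SMC2 average became 6 under ERCC scaling, 0 with the pseudocount and 0 with the RPKM filter. Under ERCC scaling Tubb3 reversed with SMC1 (0.61) and with the CAPH2 average (0.15), as this scaling adds the same amount to every transcript of a library.

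In CAPH2 against SMC2, the 1 transcript called by edgeR became 3 with DESeq2 size factors, 5 with the DESeq2 test, 8 with no count filter and 1 to 404 when a hairpin was left out (404 without CAPH2 #2, 29 without CAPH2 #1, 3 without SMC2 #1). With the hairpin number as a replicate block, 15 were called. The deviations of same-numbered libraries correlated at 0.049 over 18245 transcripts, so the numbers were not taken to pair the libraries.

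With 1 GFP and 1 SMC1 library the spread between cultures is unknown. Zic1 (13 to 29 counts outside the SMC1 library) and Dcx (2 to 8) are limited by depth.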
